A study of Homo sapiens with 22 samples.

Results

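The comparison described here is a knockdown of METTL3, the catalytic subunit of the complex that writes N6-methyladenosine (m6A) into RNA, set against its control line in the breast cancer line MDA-MB-231. The knocked-down cells are labelled shM3 and the controls B5, with 2 libraries each, and the labels give both as wild-type in genotype and kept for 2 to 3 months. What B5 stands for, and whether either line is a clone, is not given in the sources used here. Every gene that reached 1 FPKM in at least 2 of the 8 libraries of the knockdown table was taken, giving 14638 of the 60669 genes listed. The other 4 libraries of that table are shM3 cells into which METTL3-WT or METTL3-CD was added back (shM3_WT and shM3_CD, also kept for 2 to 3 months). They entered the fit for the estimate of the spread, and their levels are given beside some genes. The whole series holds 22 samples in 11 groups. Cells grew in DMEM with serum, lentivirus and drugs were applied as each group required, and RNA was taken with Trizol, per the labels' protocols.

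As background, m6A is placed mostly on messenger RNA by METTL3 with METTL14 and their partners, is read by YTH-domain and IGF2BP proteins, and is removed by ALKBH5 and FTO. Methylated transcripts are often less stable, so loss of the writer can raise some RNAs and lower others. METTL3 has been studied in breast cancer cells for its part in proliferation, stress responses and innate immune signalling. MDA-MB-231 is a basal, mesenchymal-like line that lacks the oestrogen and progesterone receptors.

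FPKM counts fragments scaled to the length of the gene and to the total of the library. Such levels can be set side by side, but the make-up of a library can still shift them. The main fit used no further scaling, and alternatives with scaling are given further below. Changes are differences of log2(FPKM + 1), which understates the fold of low genes, and a plain fold is the ratio of the mean FPKM. A gene was called, and is said to have risen or fallen, where limma with Benjamini-Hochberg adjustment over all 14638 genes gave an adjusted p under 0.05. All adjusted p-values below come from that fit. Whether the libraries of each line were grown as separate cultures is not stated, so p-values here measure only the spread between these libraries, which may be technical. With 2 against 2, an exact permutation test of a single gene cannot go below p = 0.333.

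The depth of the libraries is unknown. The FPKM of B5 replicate 2 held an extreme value for PIDD1, and without that gene the 4 libraries summed to 423171 to 446989 and had 13552 to 13997 genes at 1 FPKM or more. Across genes, the log2 values of the 2 B5 libraries were correlated at r = 0.977, those of the 2 shM3 libraries at 0.986, and those of a B5 and an shM3 library at 0.936 to 0.943. These are descriptions across genes, which are not independent. Within a group, 15 genes in B5 and 14 in shM3 with a mean of at least 5 FPKM differed at least 4-fold in FPKM + 1 between the 2 libraries.

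The targeted gene METTL3 (ENSG00000165819, minus strand of hg38 chromosome 14 from 21498133 to 21511375) measured 20.1 and 23.8 FPKM in B5 and 4.39 and 4.805 in shM3, a 4.77-fold fall (log2 change -2.03 ± 0.09 SE, adjusted p = 3.38e-05). Both shM3 libraries lay well below both B5 libraries, and neither was at 0. Among the 7 tested genes of the 8 listed for the writer complex, 2 fell (28.6%) and 1 rose (14.3%), with a median log2 fold change of -0.14. Over all genes tested, 19.9% fell and 17.9% rose. METTL14, the structural partner of METTL3 in the heterodimer, was at 8.31 and 10.1 FPKM in B5 and 4.95 and 5.13 in shM3 (adjusted p = 0.0115), a call that was lost without B5 replicate 2 or without shM3 replicate 1. CBLL1, the E3 ligase-like subunit also known as HAKAI, rose from 5.24 and 4.37 to 7.92 and 9.75 FPKM (log2 change 0.76 ± 0.14 SE, adjusted p = 0.00603). The other subunits were not called. WTAP, the adaptor of the complex, was at 26.8 and 27.02 FPKM in B5 and 25.3 and 23.4 in shM3, VIRMA, its scaffold, at 13.8 and 14.6 FPKM in B5 and 17.6 and 14.3 in shM3, ZC3H13, which helps to hold the complex in the nucleus, at 7.07 and 8.53 FPKM in B5 and 7.22 and 6.39 in shM3, and RBM15B, which brings it to RNA, at 11.9 and 10.9 FPKM in B5 and 10.6 and 10.8 in shM3. RBM15, at under 1 FPKM in the 4 libraries, was not tested.

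Of 15 tested readers and erasers, 4 rose and 3 fell (median 0.00). IGF2BP2, a reader that stabilises methylated RNA, rose from 27.6 and 24.9 to 47.1 and 43.3 FPKM (log2 change 0.77 ± 0.09 SE, adjusted p = 0.000795). YTHDF1, a cytoplasmic reader, rose from 25.3 and 23.2 to 36.3 and 35.4 FPKM (log2 change 0.55 ± 0.08 SE, adjusted p = 0.00187). ALKBH5, a demethylase, was at 28.9 and 36.5 FPKM in B5 and 46.7 and 46.4 in shM3, and its call was lost with either shM3 library left out. The rise of IGF2BP3 was likewise lost without B5 replicate 1, shM3 replicate 1 or shM3 replicate 2. The falls of FMR1, HNRNPA2B1 and RBMX each lost their call without shM3 replicate 2, so that none of the 3 falls held there, and the list had 1 fall without B5 replicate 1. For the rises, 2 held without each shM3 library.

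Of the 14638 genes, 5534 were called (37.8%). Those higher in shM3 numbered 2620 (17.9%) and those lower 2914 (19.9%). These shares are the background against which every list, above and below, is to be read. Called and changed at least 2-fold were 315 genes higher (2.15%) and 819 lower (5.60%). The count rests in part on each library: without shM3 replicate 1 there were 1642 higher and 2030 lower calls, and without shM3 replicate 2 there were 1638 and 2057. No gene was called in the opposite direction in either case. The lists described next stood mostly to the lower side, as the plot of called shares shows, and the median change over all genes was 0.00.

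**Figure D1:**
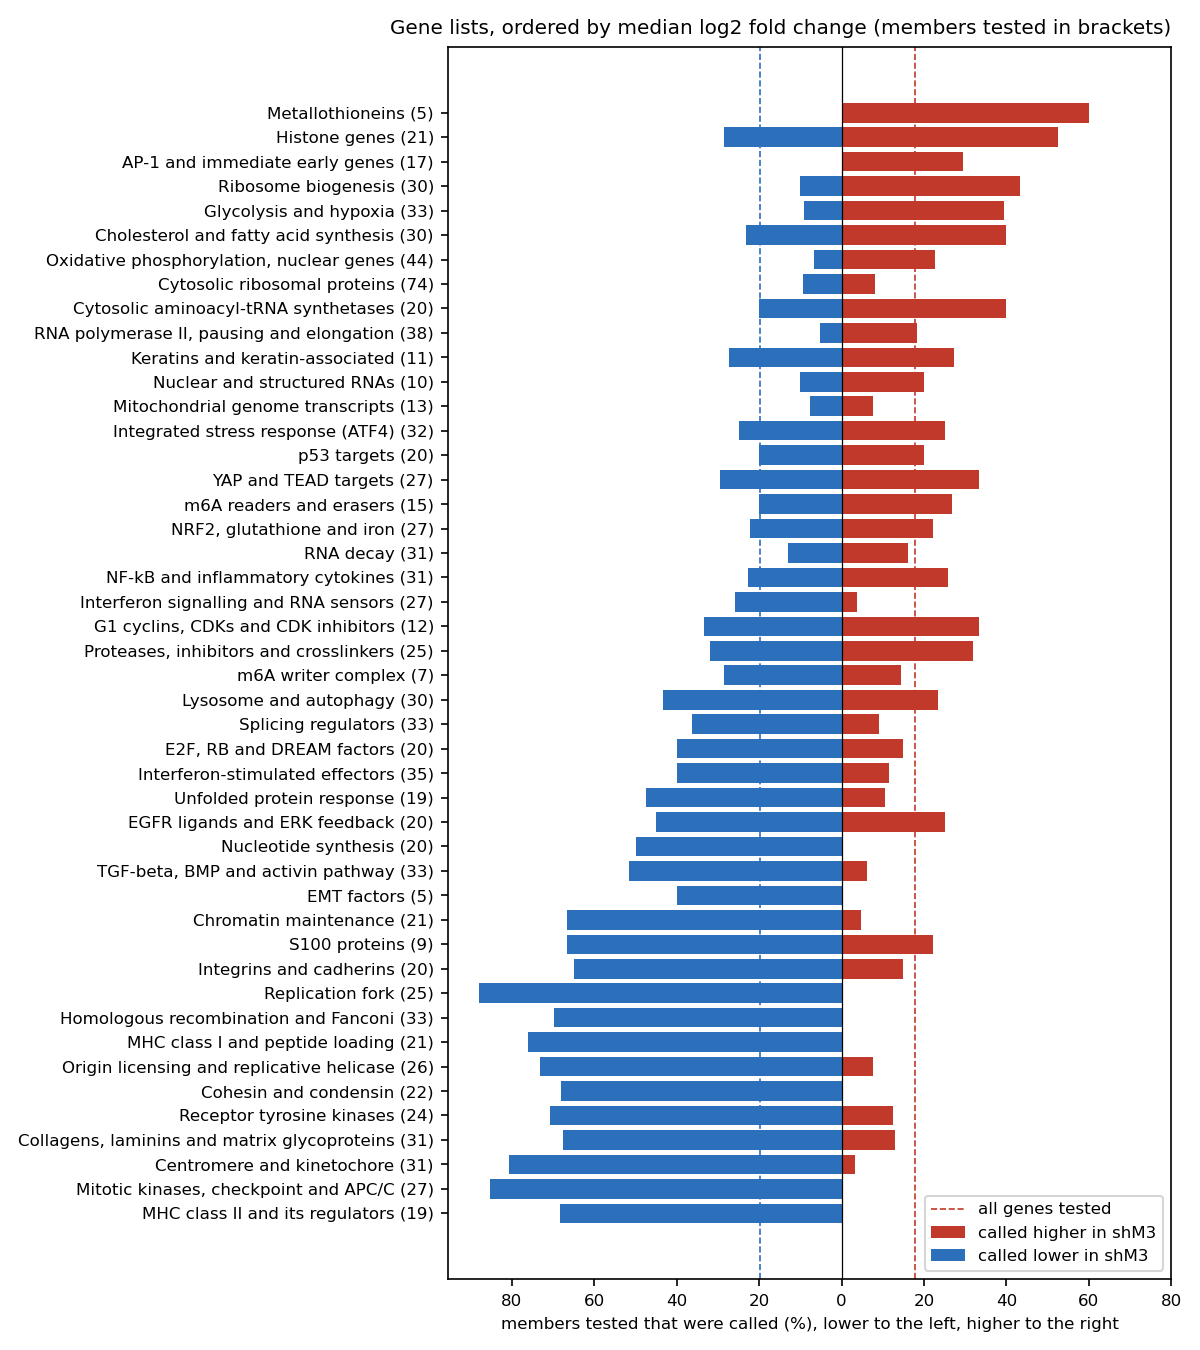
Bars give the percent of the tested members of each of 46 gene lists that were called lower (blue, to the left) or higher (red, to the right) in shM3 than in B5, with lists ordered by their median log2 fold change and dashed lines at the shares over all genes (17.9% higher and 19.9% lower). Lists of mitosis, DNA replication, antigen presentation, matrix and receptor genes had most of their tested members called lower, and histone genes had 11 of 21 called higher.

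Most genes of DNA replication were lower in shM3. Replication starts where the origin recognition complex, CDC6 and CDT1 load the MCM helicase, and it proceeds with polymerases, the PCNA clamp and the chromatin assembly factor. Among 26 licensing and helicase genes 19 were lower and 2 higher (median log2 change -0.76). MCM6, a helicase subunit, fell from 28.3 and 29.1 to 9.35 and 10.2 FPKM (log2 change -1.46 ± 0.09 SE, adjusted p = 6.41e-05), MCM5 from 39.97 and 45.1 to 15.1 and 14.7 FPKM, MCM3 from 102 and 106 to 35.2 and 41.7 FPKM and MCM2 from 37.4 and 44.05 to 14.7 and 13.6 FPKM. MCM10, which helps to activate the helicase, fell from 13.6 and 14.2 to 5.21 and 4.47 FPKM. In all of these genes both shM3 libraries were below both B5 libraries, at 2.71-fold to 2.93-fold lower means. The 2 members that rose were subunits of the origin recognition complex. ORC2 was at 4.44 and 5.28 FPKM in B5 and 8.82 and 8.98 in shM3 (log2 fold change 0.76, adjusted p = 0.00209) and ORC5 at 8.04 and 8.11 FPKM in B5 and 10.9 and 11.6 in shM3 (log2 fold change 0.43, adjusted p = 0.00803).

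At the fork, 22 of 25 genes fell and none rose (median -0.59), with fewer falls called whichever library was left out. POLA1, the catalytic subunit of the polymerase that starts each strand, fell from 11.2 and 12.2 to 3.49 and 3.52 FPKM (log2 change -1.50 ± 0.10 SE, adjusted p = 8.79e-05). PCNA, the sliding clamp, fell from 127 and 113 to 40.6 and 45.7 FPKM, CHAF1B, a subunit of the histone-depositing factor CAF-1, from 10.8 and 12.2 to 3.62 and 4.28 FPKM, LIG1, which seals the fragments, from 24.5 and 29.6 to 11.1 and 12.2 FPKM, and RPA3, a single-strand binding subunit, from 19.2 and 20.2 to 8.62 and 7.09 FPKM. Of 20 genes of nucleotide synthesis 10 fell and none rose (median -0.33), with 6 falls left with either shM3 library left out. The nucleotide genes with the smallest adjusted p were TYMS, the thymidylate synthase, at 111 and 98.05 FPKM in B5 and 20.4 and 21.8 in shM3, TK1, the thymidine kinase, at 107 and 102 FPKM in B5 and 48.1 and 46.4 in shM3, ADSS2 of the purine path at 55.4 and 52.4 FPKM in B5 and 16.3 and 19.6 in shM3, DUT, which removes dUTP, at 44.2 and 52.4 FPKM in B5 and 16.98 and 14.3 in shM3, and RRM2, a subunit of ribonucleotide reductase, at 56.3 and 48.9 FPKM in B5 and 18.01 and 18.5 in shM3. Each was at least 2.21-fold lower in shM3, with no overlap of the groups. RNA of a whole culture was sequenced, so that fewer cells in S phase or mitosis and less RNA per cell cannot be told apart for these genes.

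Mitotic genes were lower as well. Of 27 mitotic kinase, cyclin, checkpoint and APC/C genes tested, 23 fell and none rose (median -1.06), and the count was 23 without any 1 of the 4 libraries. CCNA2, cyclin A2, fell from 52.4 and 50.9 to 22.8 and 22.4 FPKM (log2 change -1.16 ± 0.07 SE, adjusted p = 7.1e-05), INCENP, the scaffold of the Aurora B complex, from 24.04 and 29.4 to 7.37 and 7.93 FPKM, CCNB2 from 44.99 and 36.6 to 12.5 and 12 FPKM, CCNB1, the main mitotic cyclin, from 92.6 and 91.8 to 46.3 and 49.8 FPKM, and BUB1B, a checkpoint kinase, from 20.02 and 19.7 to 9.13 and 8.54 FPKM. Of 31 centromere and kinetochore genes 25 fell (median -0.94). NDC80, the microtubule-binding subunit, fell from 40.4 and 40.6 to 14.4 and 13.5 FPKM (log2 change -1.47 ± 0.07 SE, adjusted p = 4.19e-05), its partners NUF2 from 32.1 and 29.6 to 9.92 and 11.3 FPKM and SPC25 from 15.7 and 16.99 to 3.65 and 3.76 FPKM, CENPF from 22.4 and 29.9 to 5.28 and 5.097 FPKM and CENPU from 28.7 and 29.6 to 12.7 and 12.2 FPKM. MIS18A, which primes centromeres for new CENP-A, was the exception and rose from 7.61 and 8.57 to 13.03 and 13.2 FPKM (adjusted p = 0.00485).

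Within the list of the ring complexes that hold and fold chromosomes, 15 of 22 fell and none rose (median -0.78). The 5 smallest adjusted p-values all belonged to condensin subunits, which compact mitotic chromosomes: NCAPG2 fell from 45.7 and 49.5 to 21.9 and 21.4 FPKM, SMC4 from 50.1 and 45.1 to 15.6 and 16.2 FPKM, NCAPD2 from 54.1 and 62.1 to 24.9 and 23.4 FPKM, NCAPG from 32.2 and 34.3 to 15.9 and 14.9 FPKM and NCAPH2 from 22.04 and 21.6 to 10.8 and 11.2 FPKM. Loaders and release factors of cohesin, chosen after their values were seen, were not called. NIPBL was at 9.92 and 13.4 FPKM in B5 and 8.68 and 9.46 in shM3, MAU2 at 15.2 and 16.8 FPKM in B5 and 17.9 and 14.7 in shM3, WAPL at 13.7 and 15.3 FPKM in B5 and 14.4 and 13.97 in shM3 and PDS5A at 24.9 and 30.3 FPKM in B5 and 26.6 and 26.1 in shM3.

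Promoters of 4 of these genes are shown because short elements known from cell-cycle promoters could be looked for in them. They come from RefSeq on GRCh38.p14 and run 5′ to 3′ up to the annotated start of transcription. They are CDC20, the APC/C activator (chr1:43358793-43358980, plus strand), the mitotic kinase gene PLK1 (chr16:23678769-23678888, plus strand), CCNB2 (chr15:59104896-59105145, plus strand) and MCM6 (chr2:135876444-135876604, minus strand). Capitals mark CCAAT and TTTGAA in CDC20, PLK1 and CCNB2, and TTGGCGC in MCM6, each on either strand. TTTGAA is the core of the CHR element of late cell-cycle genes, and TTGGCGC has the form of an E2F site.
CDC20: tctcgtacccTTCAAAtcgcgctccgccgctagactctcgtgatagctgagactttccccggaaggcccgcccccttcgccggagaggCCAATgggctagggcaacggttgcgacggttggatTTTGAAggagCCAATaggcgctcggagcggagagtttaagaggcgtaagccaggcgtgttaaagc
PLK1: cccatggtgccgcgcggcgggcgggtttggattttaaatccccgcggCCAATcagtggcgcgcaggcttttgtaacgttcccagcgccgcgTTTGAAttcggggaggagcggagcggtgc
CCNB2: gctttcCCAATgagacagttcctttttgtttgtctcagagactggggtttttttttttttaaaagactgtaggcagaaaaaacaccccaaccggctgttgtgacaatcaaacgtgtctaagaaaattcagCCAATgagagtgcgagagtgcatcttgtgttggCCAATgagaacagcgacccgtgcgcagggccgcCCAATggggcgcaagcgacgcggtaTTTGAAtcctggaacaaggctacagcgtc
MCM6: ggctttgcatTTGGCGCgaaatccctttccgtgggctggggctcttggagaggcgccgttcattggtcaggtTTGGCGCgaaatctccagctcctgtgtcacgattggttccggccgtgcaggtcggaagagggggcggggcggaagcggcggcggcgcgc
The TTTGAA nearest the start began 65 bases before it in CDC20 and 29 before it in PLK1 and in CCNB2. CCNB2 held 4 CCAAT boxes, at 244, 120, 87 and 54 bases. CDC20 was at 128 and 121 FPKM in B5 and 74.4 and 70.4 in shM3 and PLK1 at 48.5 and 40.96 FPKM in B5 and 19.1 and 10.6 in shM3 (log2 fold changes -0.78 and -1.58, adjusted p = 0.00028 and 0.00301).

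The letters were counted over the 250 bases before the start of 9666 tested protein-coding genes, out of 12044, with both strands searched. TTTGAA stood in 795 promoters (8.22%). It was in 10.9% of those of genes that fell, 6.52% of those that rose and 7.83% of those not called. Of 20 mitotic promoters 9 held it (45.0%), and of 22 licensing promoters and 21 fork promoters none did. TTGGCGC or TTCCCGC, the former able to share its TTGG with an ATTGG, stood in 12.9% of all promoters, in 9 of 22 licensing promoters (40.9%), in 9 of 21 fork promoters (42.9%) and in 3 of 20 mitotic promoters. CCAAT was in 35.6% of all and in 14 of 20 mitotic promoters (70.0%). Matches of letters are a description and show no bound factor.

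Regulators of the cycle were mixed. Of 20 E2F, RB and DREAM genes 8 fell and 3 rose (median -0.25), with 1 rise left without B5 replicate 1 or without shM3 replicate 2. MYBL2, the B-Myb subunit of the late-cycle activator, fell from 41.8 and 39.4 to 11.2 and 10.8 FPKM (log2 change -1.79 ± 0.07 SE, adjusted p = 2.53e-05), E2F1 from 42.8 and 37.8 to 9.12 and 9.98 FPKM, the repressor E2F8 from 6.61 and 6.12 to 0.9899 and 0.713 FPKM and TFDP1, the DNA-binding partner of E2Fs, from 75.6 and 63.6 to 32.3 and 29.9 FPKM. E2F5, a partner of the quiescence repressor complex, rose from 5.27 and 4.01 to 14.7 and 14.6 FPKM (log2 change 1.49 ± 0.13 SE, adjusted p = 0.000247), and no library of the 2 groups overlapped. The rise of E2F7 (31.98 and 36.8 FPKM in B5 and 44.8 and 48.2 in shM3) was lost without B5 replicate 1 or shM3 replicate 2. That of E2F3 (5.86 and 11.3 FPKM in B5 and 15.4 and 15.4 in shM3) was lost without B5 replicate 1 or either shM3 library.

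Among 12 tested G1 genes 4 fell and 4 rose (median -0.10). CDK6, a kinase that drives cells out of G1, fell from 8.08 and 10.6 to 1.82 and 1.99 FPKM (log2 change -1.82 ± 0.14 SE, adjusted p = 0.000181). CDKN2D, an inhibitor of CDK4 and CDK6, fell from 43.7 and 39.7 to 25.4 and 26.3 FPKM, and CCNE2 from 7.86 and 6.98 to 4.61 and 3.72 FPKM. The inhibitors CDKN1B (p27) and CDKN1C (p57) rose, from 12.2 and 12.3 to 19.1 and 19.7 FPKM and from 8.66 and 7.99 to 15.1 and 13.7 FPKM, as did CCNE1, cyclin E1, from 7.45 and 7.87 to 13.9 and 12.2 FPKM. CDKN2A and CDKN2B were listed at 0 in the 4 libraries.

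Genes of homologous recombination and the Fanconi pathway, which repair breaks and crosslinks after replication, were also lower, with 23 of 33 falling and none rising (median -0.70). Here too fewer falls were called whichever library was left out. FANCI fell from 24.5 and 26.8 to 10.2 and 10.2 FPKM, MND1, a recombination accessory factor, from 23.8 and 20.04 to 7.14 and 7.24 FPKM, FANCG from 22.4 and 23.2 to 10.2 and 11.3 FPKM, EXO1, a nuclease, from 14.4 and 10.7 to 3.396 and 3.56 FPKM and FANCD2 from 6.403 and 6.49 to 2.504 and 2.16 FPKM. Of 21 genes that maintain chromatin and its marks 14 fell and 1 rose (median -0.51), with 9 falls left without shM3 replicate 2. ATAD2 fell from 39.5 and 40.1 to 13.5 and 14.1 FPKM, UHRF1, which guides maintenance methylation, from 47.5 and 58.7 to 12.8 and 12.8 FPKM, EZH2, the methyltransferase of Polycomb complex PRC2, from 33.5 and 35.3 to 11.5 and 12.2 FPKM, HELLS from 19.9 and 18.98 to 7.001 and 6.14 FPKM and LBR, the lamin B receptor, from 37.4 and 37.8 to 22.7 and 22.9 FPKM. DNMT3B, a methyltransferase for new marks, rose from 6.02 and 6.82 to 11.1 and 10.8 FPKM (adjusted p = 0.0022).

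More histone genes rose than fell. Of 33 listed only 21 were tested, the rest lying under the limit on low values. Of those 21, 11 rose and 6 fell (median 0.78), with 10 or 11 rises and 2 to 5 falls when 1 library was left out, the 2 falls without shM3 replicate 1. H2BC4 was at 2.69 and 2.68 FPKM in B5 and 21.9 and 19.3 in shM3 (log2 change 2.55 ± 0.19 SE, adjusted p = 0.000161), H2AC18 at 7.95 and 6.37 FPKM in B5 and 31.8 and 29.2 in shM3, H2BC5 at 22.1 and 19.9 FPKM in B5 and 67.2 and 63.95 in shM3 and H2BC21 at 1.29 and 1.39 FPKM in B5 and 5.74 and 6.54 in shM3. In each of these 4 histone genes both shM3 libraries lay above both B5 libraries, with means at least 3.12-fold higher. By contrast H1-10, a linker histone, fell from 66.4 and 55.7 to 34.7 and 33.4 FPKM (adjusted p = 0.00118). H2AX was at 85.1 and 75.8 FPKM in B5 and 61.2 and 63.7 in shM3, a fall whose call was lost without shM3 replicate 1. Histone genes are near copies of each other, so reads may be shared among them, and canonical histone messages lack a poly(A) tail, while the protocols name both a directional kit and poly(A) minus or plus fractions without saying which applied to these libraries. Of 20 histone promoters 14 held TATAAA (70.0%), against 5.25% of all promoters searched.

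**Figure D2:**
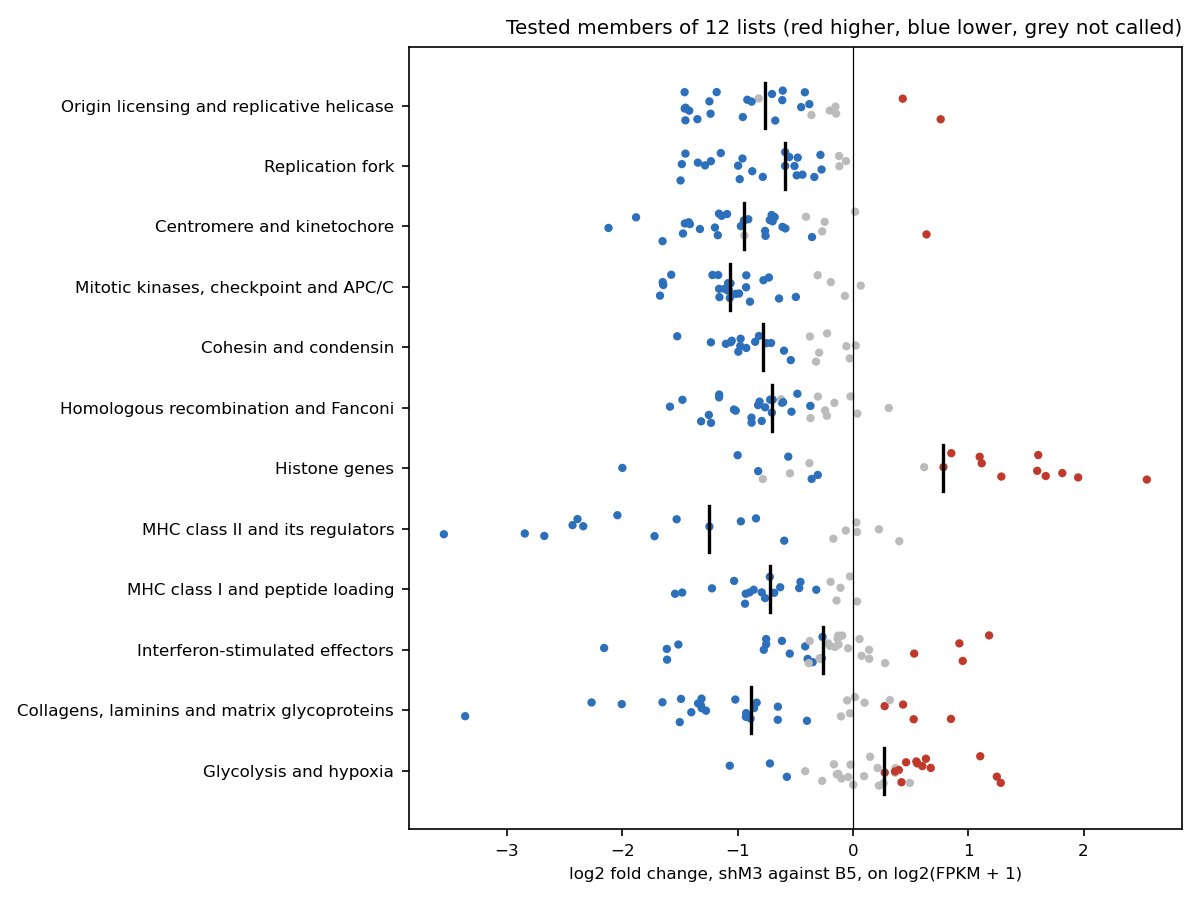
Each point is a tested member of 1 of 12 lists, placed by its log2 fold change in shM3 against B5, with red for called higher, blue for called lower, grey for not called and a black bar at the list's median. Replication, mitosis, recombination, antigen presentation and matrix genes lie mostly left of 0, histone genes are split between 11 rises and 6 falls, and the median of the glycolysis and hypoxia list is above 0.

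Genes for antigen presentation through MHC class II were much lower in shM3. Class II molecules are pairs of alpha and beta chains that present peptides from endosomes, guarded by the invariant chain CD74, loaded by HLA-DM under the control of HLA-DO, and transcribed under the coactivator CIITA with the RFX and NF-Y factors. Of 19 tested members 13 fell and none rose (median log2 change -1.24). HLA-DRA (ENSG00000204287, plus strand of hg38 chromosome 6 from 32439842 to 32445046), the alpha chain of HLA-DR, was at 225 and 207 FPKM in B5 and 16.97 and 18.1 in shM3 (log2 change -3.55 ± 0.08 SE, adjusted p = 3.07e-06). HLA-DRB1 was at 94.8 and 89.98 FPKM in B5 and 17.5 and 15.1 in shM3, HLA-DRB5 at 18.7 and 20.02 FPKM in B5 and 3.098 and 2.96 in shM3, HLA-DPA1 at 55.4 and 49.4 FPKM in B5 and 6.18 and 6.66 in shM3 and HLA-DPB1 at 7.45 and 14.9 FPKM in B5 and 0.876 and 0.746 in shM3. For each of these 5 chains both shM3 libraries lay below both B5 libraries, and the means were 5.65-fold to 13.8-fold lower. HLA-DQB1 was low in B5 and lower in shM3 (1.54 and 1.903 FPKM in B5 and 0.0735 and 0.223 in shM3, log2 fold change -1.25), and HLA-DQA1 was under 0.1 FPKM in the 4 libraries. DRB1 and DRB5 are near copies, so their reads may be shared, and the reference may differ from the alleles of this line.

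The helpers of class II fell as well. CD74 was at 529 and 473 FPKM in B5 and 119 and 122 in shM3 (log2 change -2.04 ± 0.07 SE, adjusted p = 1.64e-05), HLA-DMB at 19.98 and 19.4 FPKM in B5 and 2.82 and 3.09 in shM3, HLA-DMA at 38.5 and 36.9 FPKM in B5 and 13.03 and 11.8 in shM3 and HLA-DOA at 2.28 and 2.51 FPKM in B5 and 0.0193 and 0.0393 in shM3. CIITA fell from 9.64 and 8.15 to 4.08 and 4.97 FPKM (log2 fold change -0.84, adjusted p = 0.00387), which is 1.97-fold. CTSS, the protease that trims CD74, was at 7.899 and 7.41 FPKM in B5 and 3.36 and 3.46 in shM3, and its call was lost without shM3 replicate 1. Among the DNA-binding factors, NFYA fell from 22.1 and 23.5 to 14.1 and 15.3 FPKM. NFYB was at 15.5 and 16.5 FPKM in B5 and 15.8 and 14.7 in shM3, NFYC at 25.4 and 25.3 FPKM in B5 and 24.5 and 27.6 in shM3, RFX5 at 24.5 and 29.1 FPKM in B5 and 28.2 and 26.4 in shM3, RFXANK at 36.2 and 32.01 FPKM in B5 and 53.6 and 38.3 in shM3 and RFXAP at 1.54 and 1.19 FPKM in B5 and 1.17 and 1.02 in shM3, and none of these was called. HLA-DOB, at 0.504 and 0.515 FPKM in B5 and 0.527 and 1.04 in shM3, was not called either.

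Promoters of 3 class II genes are printed because NF-Y binds CCAAT boxes in such promoters. They are the RefSeq sequences on GRCh38.p14 for HLA-DRB1 (chr6:32589849-32590053, minus strand), HLA-DMB (chr6:32941029-32941148, minus strand) and CD74 (chr5:150412911-150413030, minus strand), each ending just before the annotated start, with CCAAT or its complement ATTGG in capitals.
HLA-DRB1: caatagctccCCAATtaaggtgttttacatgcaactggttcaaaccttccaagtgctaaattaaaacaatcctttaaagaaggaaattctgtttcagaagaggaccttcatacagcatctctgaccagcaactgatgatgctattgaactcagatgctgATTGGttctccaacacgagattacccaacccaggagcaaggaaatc
HLA-DMB: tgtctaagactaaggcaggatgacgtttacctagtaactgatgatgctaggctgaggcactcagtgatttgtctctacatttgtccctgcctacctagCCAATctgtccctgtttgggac
CD74: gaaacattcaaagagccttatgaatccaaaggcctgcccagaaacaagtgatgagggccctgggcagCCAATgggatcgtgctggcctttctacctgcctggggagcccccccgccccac
Of 15 promoters of the class II list 11 held CCAAT on either strand (73.3%), against 35.6% of all 9666. The CCAAT of CD74 began 53 bases before the start and that of HLA-DMB 22. In HLA-DRB1 the copy nearest the start, at 46 bases, is on the other strand and reads ATTGG.

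Class I genes, which present peptides made by the proteasome on nearly all cells, were lower by smaller folds. Of 21 tested 16 fell and none rose (median -0.72), with 13 to 15 falls when 1 library was left out. HLA-B was at 914 and 849 FPKM in B5 and 362 and 393 in shM3 (log2 change -1.22 ± 0.08 SE, adjusted p = 8.4e-05). PSMB9, a subunit of the immunoproteasome, fell from 59.8 and 78.95 to 22.4 and 23.4 FPKM, CALR, a loading chaperone, from 857 and 886 to 495 and 463 FPKM, and ERAP1, which trims the peptides, from 22.8 and 23.4 to 10.98 and 10.6 FPKM. B2M, the light chain, was at 449.9 and 434 FPKM in B5 and 394 and 406 in shM3, TAP1, a peptide transporter, at 53.6 and 52.97 FPKM in B5 and 47.4 and 51.5 in shM3 and TAP2 at 50.8 and 33.3 FPKM in B5 and 48.6 and 33.5 in shM3, and none of the 3, chosen after their values were seen, was called.

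Interferon genes did not move as a block. Of 27 signalling and RNA sensor genes 7 fell and 1 rose (median -0.08), with 4 falls without B5 replicate 1 or with either shM3 library left out. IRF1, a transcription factor of the pathway, fell from 45.4 and 46.4 to 19.6 and 19.2 FPKM (log2 change -1.20 ± 0.12 SE, adjusted p = 0.0004), the RNA sensor IFIH1 (MDA5) from 28.7 and 38.04 to 13.6 and 13.8 FPKM, TLR3 from 1.84 and 1.55 to 0.443 and 0.5405 FPKM and ADAR, which edits double-stranded RNA, from 37.7 and 34.4 to 19.2 and 25.2 FPKM. MAVS, the adaptor of the RNA sensors, was at 14.2 and 15.5 FPKM in B5 and 18.8 and 19.3 in shM3, a rise that was lost without B5 replicate 1 or either shM3 library. Of 35 stimulated effectors 14 fell and 4 rose (median -0.26), with 8 falls without shM3 replicate 1 and 9 without shM3 replicate 2. GBP2 fell from 16.7 and 15.4 to 5.04 and 4.12 FPKM, OASL from 91.5 and 90.5 to 54.97 and 52.3 FPKM and SAMD9L from 8.09 and 10.2 to 1.99 and 2.62 FPKM. In the other direction IFITM1 rose from 71.01 and 67.7 to 137 and 134 FPKM, MX1 from 21.5 and 24.4 to 45.1 and 43.6 FPKM and IFI27 from 59.5 and 55.8 to 135 and 129 FPKM. These 3 interferon-stimulated genes were 1.93-fold to 2.29-fold higher in shM3, with no overlap.

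Cytokine and NF-kB genes were split evenly. Of 31 tested 8 rose and 7 fell (median -0.07), close to the background shares. C3, the complement component, fell from 11.3 and 10.6 to 3.05 and 3.59 FPKM (log2 change -1.47 ± 0.10 SE, adjusted p = 9.17e-05), CSF1, the macrophage growth factor, from 180.3 and 169 to 55.98 and 65.9 FPKM and CXCL1, a neutrophil chemokine, from 45.8 and 37.9 to 23.01 and 17.4 FPKM. IL32 rose from 14.5 and 10.6 to 43.4 and 44.2 FPKM (log2 change 1.74 ± 0.14 SE, adjusted p = 0.000176), PTGS2, which makes prostaglandins, from 1.203 and 1.55 to 4.23 and 3.95 FPKM and IL1A from 1.07 and 1.05 to 3.04 and 2.83 FPKM. Groups did not overlap in any of these 6 genes.

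Matrix genes fell over most of their list. Of 31 collagens, laminins and glycoproteins tested 21 fell and 4 rose (median -0.89), with 19 to 21 falls when 1 library was left out. CCN3, a matricellular protein, was at 105 and 102 FPKM in B5 and 9.04 and 9.27 in shM3 (log2 change -3.36 ± 0.08 SE, adjusted p = 3.07e-06), FN1, fibronectin, at 168 and 178 FPKM in B5 and 39.6 and 45.2 in shM3, COL13A1, a transmembrane collagen, at 113 and 110.0 FPKM in B5 and 43.1 and 43.6 in shM3, COL5A1 at 42.95 and 47.8 FPKM in B5 and 16.4 and 16.6 in shM3 and COL6A1 at 121 and 151 FPKM in B5 and 40.3 and 44.6 in shM3. The 4 that rose included CCN1, a target of YAP and of serum response factor (379 and 362 FPKM in B5 and 670.3 and 668 in shM3), LAMB3, a laminin-332 chain (254 and 261 FPKM in B5 and 358 and 386 in shM3), and COL4A1, a basement membrane collagen (9.69 and 9.85 FPKM in B5 and 13.6 and 13.5 in shM3).

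Adhesion receptors followed, with 13 of 20 integrins and cadherins falling and 3 rising (median -0.59). Fewer of these falls were called whichever library was left out. CD44, the hyaluronan receptor, fell from 125 and 121 to 25.7 and 27.8 FPKM (log2 change -2.16 ± 0.17 SE, adjusted p = 0.000197), ITGA1 from 6.42 and 7.13 to 2.07 and 2.202 FPKM, ITGA10 from 4.06 and 3.96 to 1.07 and 0.968 FPKM, ITGA6 from 69.5 and 80.1 to 37.4 and 40.05 FPKM and CDH11 from 74.4 and 69.5 to 32.97 and 30.9 FPKM. ITGA5, the fibronectin receptor chain, rose from 59.2 and 62.1 to 93.3 and 101 FPKM, ITGB3 from 1.99 and 2.08 to 3.83 and 3.67 FPKM, and CDH2, N-cadherin, from 0.357 and 0.112 to 1.58 and 2.25 FPKM, the last from a very low level. CDH1, E-cadherin, was under 1 FPKM in the 4 libraries and was not tested.

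Proteases and their inhibitors did not move together, with 8 of 25 rising and 8 falling (median -0.13). Without shM3 replicate 1 there were 3 rises and without shM3 replicate 2 there were 5. PLAT, tissue plasminogen activator, fell from 331 and 292 to 186 and 195 FPKM. LOXL4, a collagen crosslinker, fell from 109.9 and 107 to 28.1 and 28.9 FPKM, TIMP3, a metalloprotease inhibitor, from 339 and 329 to 126 and 123 FPKM and MMP14 from 215 and 231 to 118 and 116 FPKM. F3, tissue factor, which starts coagulation, was at 50.05 and 50.4 FPKM in B5 and 271 and 269.9 in shM3 (log2 change 2.41 ± 0.06 SE, adjusted p = 4.55e-06). Of these 5 genes F3 was higher in both shM3 libraries and the other 4 lower.

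Receptor tyrosine kinases and their ligands were lower, with 17 of 24 falling and 3 rising (median -0.82), and with 11 falls without B5 replicate 2. NGFR, the low-affinity nerve growth factor receptor kept in this list although it has no kinase (ENSG00000064300, plus strand of hg38 chromosome 17 from 49495293 to 49515017), was at 73.6 and 73.6 FPKM in B5 and 2.48 and 3.04 in shM3 (log2 change -4.31 ± 0.10 SE, adjusted p = 3.07e-06), the deepest fall among the named genes. EPHA2 fell from 188 and 219 to 61.7 and 65.1 FPKM, EGFR from 53.4 and 51.99 to 24.1 and 24.4 FPKM and the ligand VEGFA from 135 and 132 to 64.7 and 61.9 FPKM, while VEGFC rose from 45.6 and 47.8 to 77.3 and 76.2 FPKM. ERBB2 was at 27.2 and 26.6 FPKM in B5 and 39.9 and 34.1 in shM3, a rise lost without shM3 replicate 1. The rise of ERBB3 (2.56 and 2.45 FPKM in B5 and 3.84 and 4.68 in shM3) was lost with either B5 library left out or without shM3 replicate 2.

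Feedback genes of the ERK pathway split by member. Of 20 tested 9 fell and 5 rose (median -0.32), with 3 rises without shM3 replicate 2. The phosphatase genes DUSP1 and DUSP5 rose, from 16.2 and 17.5 to 77.4 and 72.2 FPKM and from 36.04 and 32.9 to 116 and 118 FPKM (adjusted p = 2.87e-05 and 2.62e-05), while DUSP6 fell from 90.9 and 86.3 to 38.7 and 28.4 FPKM. SPRY1, another feedback inhibitor, fell from 31.6 and 22 to 8.05 and 8.64 FPKM, and EREG, a ligand of EGFR, from 3.56 and 3.92 to 1.06 and 0.847 FPKM. FOSL1, an AP-1 subunit, rose from 63.1 and 51.2 to 90.1 and 88.6 FPKM. Of 17 AP-1 and immediate early genes tested 5 rose and none fell (median 0.46), among them JUND from 98.03 and 80.4 to 177 and 185 FPKM, JUNB from 51.5 and 47.2 to 71.2 and 67.5 FPKM and SRF from 32.8 and 33.5 to 47.2 and 44.6 FPKM.

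In the TGF-beta, BMP and activin pathway 17 of 33 genes fell and 2 rose (median -0.34), with 11 falls without B5 replicate 2 or shM3 replicate 1 and 10 without shM3 replicate 2. The latent TGF-beta binding proteins LTBP1, LTBP4 and LTBP3 fell, from 19.6 and 25.1 to 6.05 and 6.76 FPKM, from 38.7 and 32.8 to 14.5 and 15.8 FPKM and from 25.9 and 23.2 to 10.9 and 10.6 FPKM. ID1, a BMP target, fell from 51.2 and 46.3 to 19.6 and 21.3 FPKM (log2 change -1.21 ± 0.10 SE, adjusted p = 0.000188). FSTL3, which binds activin, rose from 7.32 and 7.58 to 19.7 and 21.03 FPKM (log2 change 1.34 ± 0.09 SE, adjusted p = 0.000115). The receptor gene TGFBR2 was at 43.4 and 30.1 FPKM in B5 and 57.6 and 90.2 in shM3, a rise lost without B5 replicate 2 or without shM3 replicate 2. Of 5 tested EMT genes TCF4 fell from 1.15 and 1.497 to 0.253 and 0.236 FPKM and VIM, vimentin, from 1025 and 971 to 696 and 689 FPKM.

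Among targets of YAP and TEAD 9 of 27 rose and 8 fell (median 0.02). Without B5 replicate 2 or shM3 replicate 1 there were 5 falls, and without shM3 replicate 2 there were 5 of each. ANKRD1 rose from 215 and 203 to 485 and 466 FPKM and LATS2, a kinase that restrains YAP, from 10.3 and 11.4 to 17.6 and 17.1 FPKM, beside F3 and CCN1 given above. NT5E fell from 137 and 141 to 85.1 and 79.9 FPKM, YAP1 itself from 51.2 and 55.4 to 38.2 and 41.2 FPKM and AXL from 173 and 198 to 139 and 137 FPKM.

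Targets of the integrated stress response, run by ATF4 when translation is curbed, rose and fell in equal number, 8 of 32 each way (median 0.08), with 5 rises without B5 replicate 1 or shM3 replicate 1. CHAC1, which degrades glutathione (ENSG00000128965, plus strand of hg38 chromosome 15 from 40952962 to 40956519), was at 2.84 and 2.97 FPKM in B5 and 22.98 and 23.6 in shM3 (log2 change 2.64 ± 0.14 SE, adjusted p = 5.08e-05), SESN2, an inhibitor of mTORC1, at 6.62 and 7.04 FPKM in B5 and 18.5 and 16.9 in shM3, and PPP1R15A (GADD34), which ends the response, at 59.2 and 60.4 FPKM in B5 and 104 and 96.8 in shM3. GDF15, a secreted stress cytokine of the same list, went down, at 87.8 and 92.5 FPKM in B5 and 18.96 and 19.2 in shM3 (log2 change -2.18 ± 0.08 SE, adjusted p = 1.64e-05), as did PSAT1 of serine synthesis, at 30.2 and 30.7 FPKM in B5 and 17.9 and 17.2 in shM3, and the arginine carrier SLC7A1, at 15.2 and 16.5 FPKM in B5 and 8.24 and 9.04 in shM3. Of 20 cytosolic tRNA synthetases 8 rose and 4 fell (median 0.12), with 5 rises without shM3 replicate 2 and 1 to 3 falls without any 1 library. HARS1 rose from 52.2 and 49.1 to 84.2 and 81.6 FPKM, RARS1 from 46.9 and 48.8 to 75 and 65.6 FPKM, IARS1 from 58.2 and 56.9 to 80.3 and 79.2 FPKM and GARS1 from 112 and 92.2 to 152 and 147 FPKM, whereas AARS1 fell from 49.7 and 50.9 to 35.9 and 38.3 FPKM. The fall of FARSB was lost without B5 replicate 2 or either shM3 library.

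Genes of the unfolded protein response of the endoplasmic reticulum leaned lower, with 9 of 19 genes falling and 2 rising (median -0.30), and with 8 or 9 falls when 1 library was left out. All 5 members named by smallest adjusted p were chaperones or folding enzymes. PDIA6 was at 197 and 201 FPKM in B5 and 76.1 and 74.5 in shM3 (log2 change -1.39 ± 0.06 SE, adjusted p = 3.21e-05), PDIA4 at 96.5 and 102 FPKM in B5 and 46.6 and 49.05 in shM3, HSP90B1 (GRP94) at 359.9 and 364 FPKM in B5 and 199.9 and 199 in shM3, HYOU1 at 126 and 142 FPKM in B5 and 74.98 and 78.01 in shM3 and DNAJB11 at 30.7 and 42.5 FPKM in B5 and 15.5 and 17.1 in shM3. HSPA5 (BiP), chosen after its value was seen, was at 219 and 239 FPKM in B5 and 169 and 166 in shM3 (log2 fold change -0.45, adjusted p = 0.00293). ERN1, the sensor IRE1, rose from 4.46 and 5.101 to 9.05 and 8.23 FPKM, and DNAJB9 was at 9.64 and 8.53 FPKM in B5 and 13.04 and 12.6 in shM3, a rise lost without shM3 replicate 1. RRBP1, a ribosome-binding protein of the rough endoplasmic reticulum, fell from 128 and 123 to 14.1 and 14.9 FPKM (log2 change -3.03 ± 0.07 SE, adjusted p = 3.07e-06).

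The promoters of HSP90B1 (chr12:103930206-103930409, plus strand) and HSPA5 (chr9:125241344-125241463, minus strand) are shown because each holds the letters of the stress response element of this pathway. They are RefSeq sequences on GRCh38.p14 that end just before the start, and capitals mark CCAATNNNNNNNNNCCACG or its reverse complement.
HSP90B1: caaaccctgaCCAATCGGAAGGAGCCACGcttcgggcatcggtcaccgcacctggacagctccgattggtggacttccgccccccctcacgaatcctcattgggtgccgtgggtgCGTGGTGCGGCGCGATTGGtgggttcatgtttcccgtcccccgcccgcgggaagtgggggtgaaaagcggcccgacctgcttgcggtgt
HSPA5: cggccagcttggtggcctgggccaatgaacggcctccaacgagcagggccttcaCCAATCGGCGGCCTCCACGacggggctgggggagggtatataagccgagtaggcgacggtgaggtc
This motif stood in 13 of 9666 promoters (0.134%) and in 4 of 19 of this list (21.1%). It contains CCAAT, which 16 of the 19 held (84.2%).

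Of 30 lysosome and autophagy genes 13 fell and 7 rose (median -0.17), with 4 rises without shM3 replicate 2. CTSD, cathepsin D, was at 900.3 and 916 FPKM in B5 and 310.1 and 330.5 in shM3 (log2 change -1.50 ± 0.08 SE, adjusted p = 4.07e-05), the cathepsin gene CTSF at 48.1 and 45.1 FPKM in B5 and 22.7 and 24.1 in shM3, and the membrane proteins LAPTM4A at 187 and 208 FPKM in B5 and 58.3 and 57.1 in shM3, LAPTM5 at 36.1 and 35.1 FPKM in B5 and 8.57 and 6.64 in shM3 and LAMP2 at 67.1 and 60.3 FPKM in B5 and 31.9 and 31.8 in shM3. The 3 members named on the rising side act in acidification or calcium release. ATP6V1A, a subunit of the proton pump, rose from 5.28 and 7.25 to 13.04 and 13.7 FPKM, ATP6AP1, an accessory subunit, from 32.8 and 34.1 to 61.9 and 54.3 FPKM, and MCOLN1, the calcium channel, from 28.8 and 28.3 to 39.95 and 41.1 FPKM.

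Metabolic lists stood slightly to the higher side. In the list of glycolysis and hypoxia 13 of 33 members rose and 3 fell (median 0.27). BNIP3, a mitophagy receptor, rose from 51.9 and 47.7 to 124 and 121 FPKM (log2 change 1.28 ± 0.07 SE, adjusted p = 5.08e-05), PFKFB4 from 4.76 and 5.26 to 13.1 and 13.4 FPKM and PFKFB3 from 14.5 and 15.2 to 31.3 and 34.8 FPKM, which both set the level of the activator of phosphofructokinase, and HK1 from 63.9 and 63.8 to 95.3 and 93.6 FPKM. ENO1, an enzyme of the pathway, fell from 1482 and 1766 to 1081 and 892 FPKM and the collagen hydroxylase P4HA2 from 35.8 and 39.7 to 25.9 and 24.1 FPKM. Of 30 cholesterol and fatty acid genes 12 rose and 7 fell (median 0.26), with 3 or 4 falls with either shM3 library left out. NSDHL rose from 16.9 and 18.4 to 34.97 and 34.2 FPKM, MVD from 12.5 and 13.1 to 27.5 and 24.5 FPKM, MSMO1 from 27.4 and 26.9 to 53.4 and 47.1 FPKM and ACLY from 74.8 and 78.3 to 116 and 117 FPKM. Against them SCD fell from 82.3 and 86.2 to 56.9 and 58.1 FPKM and SREBF1 from 43.9 and 48.2 to 32.8 and 32.7 FPKM.

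Of 27 genes of NRF2, glutathione and iron 6 rose and 6 fell (median -0.05), with 3 rises without shM3 replicate 1, and with 2 falls without shM3 replicate 1 and 3 without shM3 replicate 2. SLC40A1, the iron exporter ferroportin, fell from 1.698 and 2.51 to 0.181 and 0.122 FPKM, and TFRC, the transferrin receptor, from 32.03 and 37.5 to 23.8 and 22.8 FPKM. SRXN1 rose from 18.7 and 19.4 to 27.9 and 27.1 FPKM, TALDO1 from 132 and 122 to 170.1 and 166 FPKM and PRDX1 from 438 and 390.5 to 565 and 558 FPKM. Metallothioneins, small zinc-binding proteins that are near copies of each other, had 3 of 5 tested members rising and none falling (median 0.81). MT1E rose from 109 and 76.5 to 285 and 256 FPKM, MT2A from 1345 and 903 to 2298 and 2071 FPKM and MT1A from 8.08 and 7.24 to 13.8 and 14.6 FPKM. The 2 B5 libraries differed in MT2A by more than the 2 shM3 libraries did.

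Of 44 nuclear genes of oxidative phosphorylation 10 rose and 3 fell (median 0.16), with 5 rises without shM3 replicate 1 and 6 without shM3 replicate 2. NDUFV2 rose from 87.1 and 72.8 to 164 and 169 FPKM (log2 change 1.05 ± 0.10 SE, adjusted p = 0.000394), COX4I1 from 70.2 and 56.3 to 105 and 100.2 FPKM, NDUFA8 from 70.7 and 82.8 to 121 and 117 FPKM and COX6A1 from 423 and 354 to 543 and 559.6 FPKM, and UQCRC2 fell from 35.8 and 32.1 to 21.2 and 18.8 FPKM. The falls of ATP5F1C and UQCRC1 were both lost without shM3 replicate 2, that of ATP5F1C also without shM3 replicate 1 and that of UQCRC1 without B5 replicate 1. Of 13 protein-coding transcripts of the mitochondrial genome MT-CO1 was called higher (3816 and 2877 FPKM in B5 and 5228 and 5005 in shM3) and MT-CYB lower (1029 and 824 FPKM in B5 and 667 and 628 in shM3), the former lost without shM3 replicate 1 and the latter without shM3 replicate 2. The B5 libraries differed here, their 13 transcripts summing to 27630 FPKM in replicate 1 and 20200 in replicate 2, and 7 of the 13 were called higher without B5 replicate 1.

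The transfer RNAs of the mitochondrial genome separated by strand, a pattern chosen after its values were seen. MT-TP and MT-TA, which carry proline and alanine, were among the 15 highest rises, at 43.03 and 21.5 FPKM in B5 and 155 and 144 in shM3 and 323 and 179 FPKM in B5 and 1028 and 986 in shM3 (log2 fold changes 2.25 and 2.06). Both are annotated on the minus strand of the mitochondrial chromosome. Of 8 genes on that strand 6 were called higher and none lower (median 1.69). MT-TA, MT-TN, MT-TC and MT-TY are neighbours in the annotation. MT-TN was at 636 and 396 FPKM in B5 and 1924 and 1839 in shM3, MT-TC at 710.2 and 484 FPKM in B5 and 2150.0 and 1967 in shM3, MT-TY at 528 and 382 FPKM in B5 and 1392 and 1287 in shM3 and MT-TS1 at 224 and 202 FPKM in B5 and 557 and 462 in shM3. The remaining 2, MT-TQ at 11.2 and 16.6 FPKM in B5 and 8.01 and 10.7 in shM3 and MT-TE at 164 and 107 FPKM in B5 and 128 and 117 in shM3, were not called. Of 14 genes on the plus strand 1 was called higher and 4 lower (median -0.17). The 6 rises on the minus strand kept their call with each library left out. On the plus strand the 4 falls, MT-TM, MT-TR, MT-TH and MT-TS2, each lost their call without B5 replicate 1 and without shM3 replicate 2, and the rise, MT-TF, kept it only without B5 replicate 1. In MT-TA the add-back means were 557 in shM3_WT and 981 in shM3_CD, and in MT-TC 1116 in shM3_WT and 1974 in shM3_CD. Mitochondrial tRNAs are shorter than the usual fragment of a library, the B5 libraries differed from each other in most of them, and whether the fragments were counted by strand is not given in the sources used here.

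**Figure D3:**
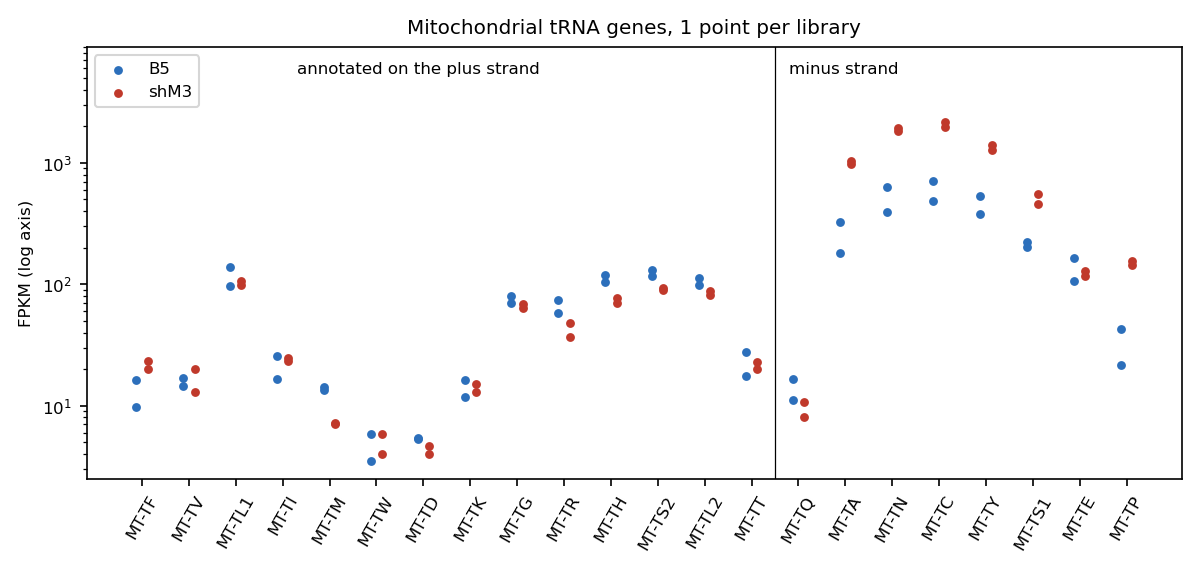
FPKM (log axis) of the 22 mitochondrial tRNA genes, ordered by position within the plus strand (left of the line) and the minus strand (right), with 1 point for each B5 (blue) and shM3 (red) library. For 6 of the 8 minus-strand genes both shM3 points lie above both B5 points, and the plus-strand genes show small differences in either direction.

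Of 74 cytosolic ribosomal protein genes, which are among the highest expressed in these libraries, 6 rose and 7 fell (median 0.12). These counts depended on single libraries, with 17 rises without B5 replicate 1, 11 falls without B5 replicate 2, no rise without shM3 replicate 1, and 2 of each without shM3 replicate 2. RPS24 and RPS12 stood apart. RPS24 was at 671 and 499 FPKM in B5 and 139 and 137 in shM3 (log2 change -2.06 ± 0.13 SE, adjusted p = 8.73e-05) and RPS12 at 862 and 640.5 FPKM in B5 and 414 and 411 in shM3 (log2 change -0.85 ± 0.13 SE, adjusted p = 0.00306), with both shM3 libraries below both B5 libraries. RPS24 is spliced in several forms at its end and RPS12 hosts small nucleolar RNAs, and how the authors' gene values treat isoforms is not known here. Of 30 genes of ribosome biogenesis 13 rose and 3 fell (median 0.28), with 10 or 11 rises when 1 library was left out. NOLC1 rose from 40.1 and 35.4 to 78.2 and 76.7 FPKM, NOP10 from 96.2 and 98.5 to 184 and 181 FPKM and NOP16 from 41.8 and 37.9 to 67.9 and 63.9 FPKM, while TCOF1, the treacle factor of ribosomal DNA transcription, fell from 31.3 and 36.1 to 10.5 and 9.86 FPKM (log2 change -1.63 ± 0.10 SE, adjusted p = 7.56e-05) and RRS1 from 9.43 and 9.62 to 4.42 and 4.78 FPKM.

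Of 38 genes of RNA polymerase II, pausing and elongation 7 rose and 2 fell (median 0.12), with 3 or 4 rises when any 1 library was left out. Their share of rises (18.4%) was near the 17.9% over all genes. POLR2A, the largest subunit, rose from 39.6 and 43.7 to 64.9 and 67.3 FPKM, and RTF1, an elongation factor of the PAF complex, fell from 16.9 and 16.2 to 5.49 and 3.61 FPKM (log2 change -1.68 ± 0.16 SE, adjusted p = 0.00035). Of 33 splicing regulators 12 fell and 3 rose (median -0.21), with 6 falls without B5 replicate 2 or shM3 replicate 1 and 4 without shM3 replicate 2. None of the 3 rises held without B5 replicate 1 or with either shM3 library left out. SRSF4 fell from 23.9 and 25.5 to 9.04 and 9.87 FPKM, HNRNPD from 157 and 154 to 95.5 and 94.8 FPKM, SRSF1 from 35.5 and 30.02 to 20.6 and 23.02 FPKM and SRSF7 from 37.2 and 36.8 to 24.5 and 27.6 FPKM. Of 31 decay genes 5 rose and 4 fell (median -0.07), with 2 rises without shM3 replicate 1, 2 falls without it and 7 falls without B5 replicate 1. Both decay shares (16.1% higher and 12.9% lower) were under those over all genes (17.9% and 19.9%). CNOT6, a deadenylase of the CCR4-NOT complex that YTHDF2 recruits to methylated RNA, rose from 6.08 and 6.96 to 12.9 and 14.6 FPKM (log2 change 0.97 ± 0.12 SE, adjusted p = 0.000987), and PAN2, another deadenylase, fell from 7.57 and 6.07 to 3.38 and 2.54 FPKM.

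Of the 15 highest rises and 15 deepest falls, 29 kept their call under each alternative tried and with each library left out. The exception was AC087721.2, annotated as protein-coding, at 10.2 and 11.2 FPKM in B5 and 0 and 0 in shM3, where it is listed at 0, and its call was lost with any 1 of the 4 libraries left out. UCA1, a lncRNA, rose from 1.19 and 0.725 to 9.85 and 12.5 FPKM, KRTAP2-3, a keratin-associated gene, from 4.66 and 2.08 to 23.6 and 26.2 FPKM, VAMP3, a vesicle fusion protein, from 7.79 and 9.31 to 51.4 and 50.5 FPKM, PPIF, the mitochondrial cyclophilin, from 28.03 and 24.8 to 140.4 and 134 FPKM, MTCH1, a protein of the mitochondrial outer membrane, from 107 and 99.7 to 416 and 414 FPKM and TUBB2A, a tubulin, from 34.5 and 32.1 to 144 and 144 FPKM. SUN3, of a family of nuclear envelope proteins, rose from 3.39 and 3.52 to 18.8 and 19.04 FPKM and CBY1, an inhibitor of beta-catenin, from 3.67 and 4.45 to 17.7 and 19.8 FPKM. Each of these 8 was at least 4.01-fold higher in shM3, and in none did the groups overlap.

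On the falling side, S100A2, a calcium-binding protein, went from 80.9 and 68.7 to 5.82 and 7.53 FPKM, APOBEC3G, a cytidine deaminase, from 17.9 and 14.8 to 1.32 and 1.11 FPKM, PTN, the growth factor pleiotrophin, from 17.04 and 18.1 to 1.42 and 1.61 FPKM, and CA12, a carbonic anhydrase, from 12.2 and 11.1 to 0.4499 and 1.23 FPKM. VIPR1, a receptor for vasoactive intestinal peptide, went from 52.5 and 42.1 to 3.76 and 2.86 FPKM, NOX5, an NADPH oxidase, from 15 and 10.8 to 0.318 and 0.869 FPKM, and the lncRNA LINC01929 from 19.9 and 15.6 to 1.57 and 1.77 FPKM. The organic anion carrier SLCO4A1 went from 134 and 133 to 11.01 and 10.1 FPKM and SLCO4A1-AS1, annotated next to it, from 31.5 and 29.3 to 2.08 and 2.99 FPKM. Reads of such a pair cannot be told apart where strand was not used. In all 9 the shM3 means were at least 10.6-fold lower. Other members of the S100 family differed in direction, with 6 of 9 tested falling and 2 rising (median -0.52). S100A3 fell from 43.3 and 46.04 to 15.9 and 15.3 FPKM and S100A4 from 1136 and 993 to 487 and 499 FPKM, while the rises of S100A10 and S100A11 were lost with either shM3 library left out, the former also without B5 replicate 2.

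**Figure D4:**
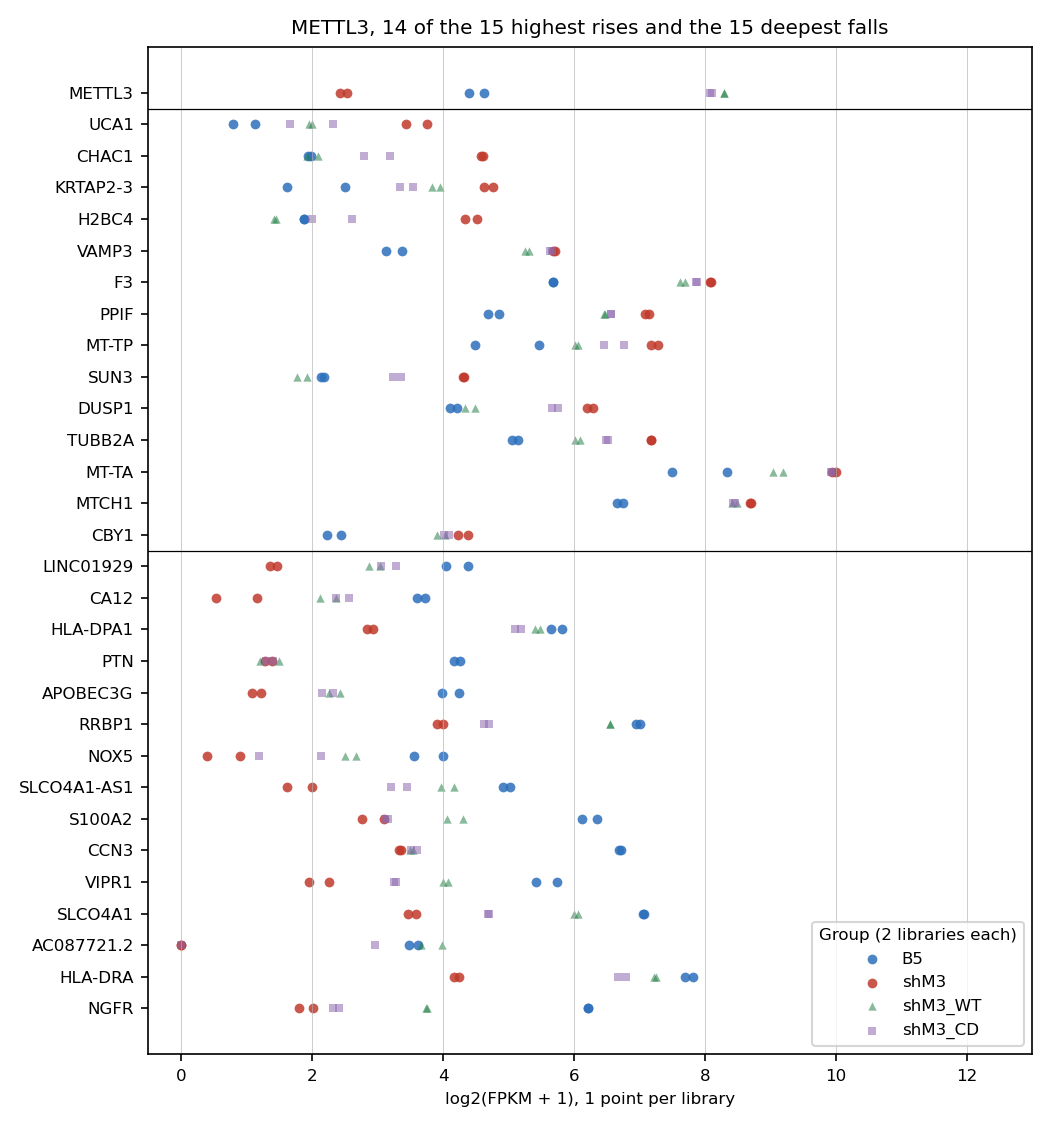
Level of METTL3, of 14 of the 15 highest rises and of the 15 deepest falls on log2(FPKM + 1), with 1 point per library for B5 (blue circles), shM3 (red circles), shM3_WT (green triangles) and shM3_CD (purple squares). B5 and shM3 points do not overlap for any gene, which is part of how the genes were chosen, and the add-back libraries lie near B5 for some genes and near shM3 for others.

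The add-back libraries share the shM3 background, and their levels are given without a test for genes chosen after their values were seen. The number of genes in each set below therefore does not show how common its pattern was. METTL3 itself was far above its B5 level in them, at a mean of 312 in shM3_WT and 274 in shM3_CD. F3 was at 202 in shM3_WT and 232 in shM3_CD, VAMP3 at 38 in shM3_WT and 49.3 in shM3_CD, CCN3 at 10.4 in shM3_WT and 10.7 in shM3_CD and PTN at 1.57 in shM3_WT and 1.54 in shM3_CD. For these 4 genes both add-back groups had means nearer to shM3 than to B5. The same held for other genes of the largest changes. Among them were NGFR (12.41 in shM3_WT and 4.18 in shM3_CD), S100A2 (17.25 and 7.79), PPIF (87.4 and 93.65) and MTCH1 (350.1 and 347.1). H2BC4 was at 1.697 in shM3_WT and 4.06 in shM3_CD, CHAC1 at 3.04 in shM3_WT and 7.04 in shM3_CD, SUN3 at 2.595 in shM3_WT and 8.86 in shM3_CD and HLA-DPA1 at 42.6 in shM3_WT and 34.5 in shM3_CD. Both add-back groups had means nearer to B5 than to shM3 in these 4 genes. RRBP1 was at 93.1 in shM3_WT and 24.4 in shM3_CD, TYMS at 98.7 in shM3_WT and 42.1 in shM3_CD and DUSP1 at 20.2 in shM3_WT and 51.5 in shM3_CD. In these 3 the shM3_WT mean was nearer to B5 and the shM3_CD mean nearer to shM3.

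The label of the cell line was read against its markers. All 10 identity genes of MDA-MB-231 were tested, and they summed to 2988 and 2914 FPKM in B5 and 2509 and 2472 in shM3. Of the 10, 6 fell, CD44, VIM and NT5E as given above, CAV1 from 148 and 128 to 85.3 and 76.4 FPKM and TGFBI from 35.1 and 30.2 to 20.2 and 19.7 FPKM among them, and PLAU was at 209 and 222 FPKM in B5 and 284 and 264 in shM3, a rise lost without shM3 replicate 1. The luminal markers ESR1, PGR and FOXA1 were under 0.1 FPKM in the 4 libraries. The 14 luminal markers summed to 386 and 349.7 in B5 and 540.2 and 562.5 in shM3, of which KRT19, rising from 228 and 208 to 422 and 436 FPKM, made up the larger part. Of the 10 of them tested 3 fell and 2 rose (median -0.18). TFF1 was at 8.32 and 10.6 FPKM in B5 and 5.13 and 5.61 in shM3, SPDEF at 33.98 and 29.8 FPKM in B5 and 22.5 and 24.4 in shM3 and TFF3 at 5.87 and 3.18 FPKM in B5 and 0.567 and 0.908 in shM3, and the falls were 2 without B5 replicate 1 and 1 without shM3 replicate 1. Of 14 haematopoietic markers TYROBP, SPI1, MS4A1 and CD3E were under 0.1 FPKM in the 4 libraries, and TYROBP, MS4A1 and CD3E were at 0 in all 4, and the sum went from 109.3 and 96.5 to 59.2 and 59.9. LAPTM5, LYZ and CD14 were called lower in that list, the last not with either shM3 library left out. Of 14 fibroblast and endothelial markers DCN, FAP, VWF, TEK, PDGFRA and CDH5 were under 0.1 FPKM, and the sum went from 22.5 and 25.5 to 16.3 and 15.7. Of the 6 of them tested 5 fell and none rose (median -0.67), namely ACTA2, PECAM1, LUM, KDR and PDGFRB. Fewer of these falls were called whichever library was left out. The part of these cells in the results was not tested.

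The size of a gene went with the direction of its change. Among 12022 protein-coding genes matched to the GENCODE annotation, those with a longest transcript of at most 1000 bases were called higher in 22.8% and lower in 17.9%, while those over 8000 bases were called higher in 9.92% and lower in 25.2% (medians 0.07 and -0.11). Genes spanning at most 5000 bases were called higher in 24.4% and lower in 20.5%, against 10.7% and 28.1% of genes spanning over 200000. The difference moved with the library left out. Genes with a transcript of at most 2000 bases were called higher in 22.6% and lower in 20.1% with all libraries, but higher in 16.5% and lower in 18.3% without B5 replicate 2, and higher in 14.4% and lower in 14.8% without shM3 replicate 2. Without shM3 replicate 1, 14.9% of them were called lower and a smaller share higher. Without B5 replicate 1 the genes over 8000 bases were called higher in 6.48% and lower in 24.5% (median -0.19), and without B5 replicate 2 in 10.4% and 15.6% (median -0.04). The part of transcript length in the lists above was not tested.

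**Figure D5:**
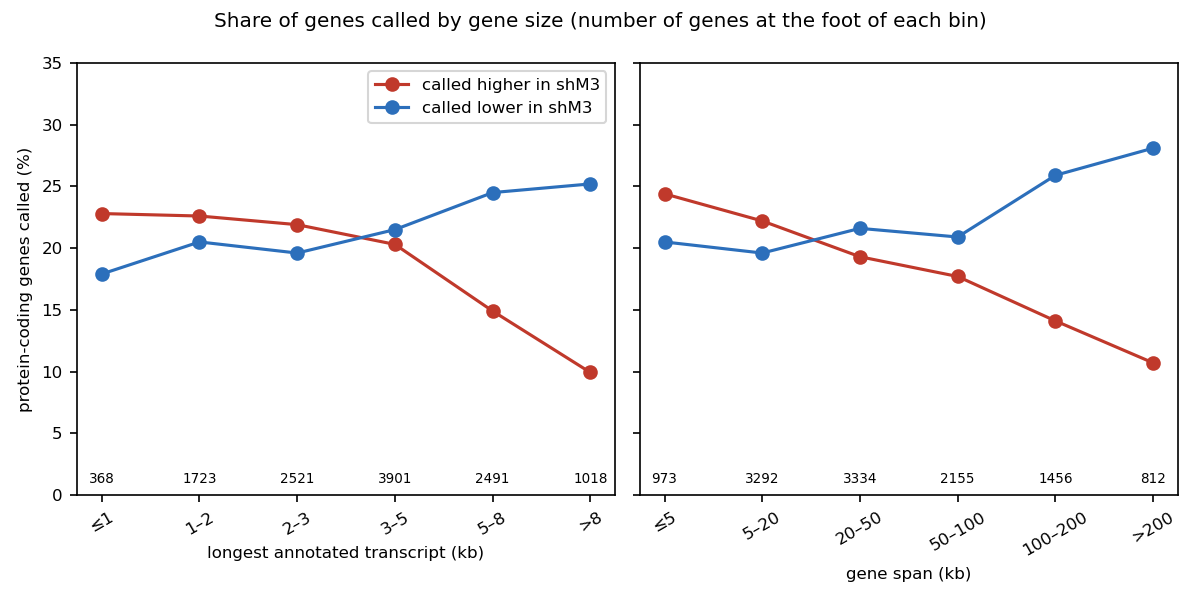
Percent of protein-coding genes called higher (red) and lower (blue) in shM3, by length of the longest annotated transcript (left) and by the span of the gene (right), both in kilobases, with the number of genes at the foot of each bin. The share called higher drops from 22.8% to 9.92% with transcript length and the share called lower goes from 17.9% to 25.2%.

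Along the genome, 294 windows of 10 megabases held at least 10 tested genes. The lowest median (-0.81) was that of chromosome 12 from 80000001 to 90000000 in hg38, with 16 genes, 10 called lower and 1 higher. Some of the lower genes overlap in the annotation, AC024909.1 with DUSP6, and GALNT4 and POC1B-GALNT4 with POC1B. ACSS3 also overlaps PPFIA2 at its end, and CCDC59 overlaps METTL25. Their reads may be shared, so the falls may not all be separate. CCDC59 in this window was at 28.8 and 30.1 FPKM in B5 and 5.803 and 5.63 in shM3 (log2 change -2.18 ± 0.11 SE, adjusted p = 3.78e-05), ACSS3 at 3.42 and 3.79 FPKM in B5 and 0.756 and 1.19 in shM3, PPFIA2 at 1.1 and 1.08 FPKM in B5 and 0.0492 and 0.165 in shM3, DUSP6 as above and POC1B at 9.88 and 12.8 FPKM in B5 and 4.17 and 3.68 in shM3. These 5 kept their call in each alternative that tested them, the 2-fold limit aside. ACSS3 and PPFIA2 stayed under 5 FPKM in all 8 libraries and were not tested with the filter at that level. PPFIA2, at a log2 change of -0.919, was also under the 2-fold limit. Of the 10 lower genes 4, METTL25, TMTC2, GALNT4 and POC1B-GALNT4, lost their call without shM3 replicate 1, which leaves 6, and the window and its genes were chosen after their values were seen. In the add-back groups CCDC59 had means of 25.7 in shM3_WT and 8.93 in shM3_CD, and POC1B 11.2 and 5.19, nearer to B5 in shM3_WT only. DUSP6, at 40.7 in shM3_WT and 40.1 in shM3_CD, and ACSS3, at 1.36 and 1.23, were nearer to their shM3 means in both. PPFIA2, at 0.634 in shM3_WT and 0.895 in shM3_CD, was nearer to its B5 mean in both. The gene in the window that rose, C12orf29, was at 8.47 and 9.03 FPKM in B5 and 12.9 and 14.6 in shM3. Among autosomes, the share of genes called lower ran from 15.3% (chromosome 16) to 26.7% (chromosome 4).

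The series also sets the compound Molib, at 0.5 µM for 3 days, against DMSO in the same cell line, in libraries that are not shared with the knockdown and in a table tested on its own. There 14182 genes were tested, of which 2469 were higher with Molib (17.4%) and 3273 lower (23.1%). Of 13450 genes tested in both tables, 16.8% were higher and 23.2% lower with Molib. Among the 2664 that were lower in shM3, 13.3% were higher and 40.2% lower with Molib. Among the 2485 higher in shM3 the counts were 568 (22.9%) and 496, and among the 8301 not called in shM3 they were 16.2% and 18.6%. The 1070 genes lower in both were 40.2% of those lower in shM3 and 34.4% of the 3114 lower with Molib. The 568 genes higher in both were 22.9% of those higher in shM3 and 25.1% of the 2262 higher with Molib.

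List by list, the counts with Molib stood beside those of shM3 as follows. Mitotic genes had 24 of 27 lower with Molib and 23 in shM3, licensing genes 18 and 19 of 26, and kinetochore genes 25 and 25 of 31. Histone genes had 16 of 21 higher and none lower with Molib, and 11 higher and 6 lower in shM3. Cytokine and NF-kB genes had 23 of 29 lower and none higher with Molib, and 6 lower and 8 higher in shM3. Class II genes had 7 of 18 lower with Molib against 13 in shM3, and genes of ribosome biogenesis 14 of 30 lower with Molib against 3. Unfolded protein response genes had 5 of 19 higher and 2 lower with Molib, and 2 higher and 9 lower in shM3. The difference between the changes in the 2 tables was not tested, and the times of 3 days and 2 to 3 months differ.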

How the data were processed

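RNA was sequenced from B5 and shM3 MDA-MB-231 cells, 2 libraries each. The authors deposited FPKM per gene, made, per the submitters' processing notes, on hg38 with tools that include HISAT2 2.1.0, Cufflinks 2.2.1 and CASAVA 1.4. Their settings and strandedness are not stated there. The labels' protocols describe 2 library preparations without assigning them. Read totals are not used, so no counting interval is given. PIDD1 was left out of sums. Values were taken as log2(FPKM + 1), and genes at 1 FPKM in 2 of 8 libraries were kept. The 4 groups of the table were fitted with limma 3.58.1 (eBayes with trend, 4 residual degrees of freedom) in R 4.3.3, adjusting over all genes. A run of the fit on simulated data used independent noise and is not taken as support for the calls here. Python 3.11.15, pandas 2.3.3 and matplotlib 3.10.9 made summaries. The table with Molib, whose FPKM unit was inferred, was fitted separately.

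The members and the 50 lists were chosen with earlier results of these data known. Named were METTL3, the 15 highest rises and 15 deepest falls with a mean of at least 5 FPKM and groups apart, up to 5 list members by adjusted p, up to 3 called against their list, and all writer and class II genes. CDC20, PLK1, HSPA5 and those so marked lie outside this rule, and a few genes within it are not reported here. GENCODE v29 gave locations for 14547 of 14638 genes by ID.

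Alternatives were a replicate block, the 4 libraries alone, pseudocounts of 0.1 and 5, 3 other filters, TMM factors, median scaling, robust eBayes, a 2-fold limit and leaving out each library. Replicate numbers were not used as pairs in the main fit, as same-numbered libraries did not deviate together across genes (correlation of deviations 0.007 between B5 and shM3).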

Additional observations from a re-analysis of the deposited data

How the results depend on the processing

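The 5534 calls (2620 higher, 2914 lower) became 5282 with a replicate block (2477 and 2805), 4480 with the B5 and shM3 libraries alone, 5163 without a filter and 4555 with a filter at 5 FPKM. A further limit of 2-fold left 1134. Leaving out 1 library gave 3672 to 4655 calls, 1638 to 2154 higher and 2030 to 2514 lower, and no gene was called in the opposite direction under any alternative. The share of higher calls among all calls was 47.3%, 48.6% with TMM factors and 51.4% after median scaling. Of 1147 named or listed genes tested, 636 were called. Of these, 419 kept their call under every alternative that tested them, the 2-fold limit not counted. A gene dropped by a filter was not counted as having lost its call. Genes that were not called with all libraries gained a call in the opposite direction in 2 cases, MAFF without shM3 replicate 2 (-0.54, adjusted p = 0.0213, with -0.54 to 0.677 over the libraries left out) and NDUFB3 without B5 replicate 2 (-0.316, adjusted p = 0.0449, with -0.316 to 0.537), and the cause was not tested. A group left with 1 library took its spread from the other groups.

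Same-numbered libraries did not deviate together across genes (correlations -0.031 to 0.035), so the main fit did not pair them. This cannot show whether they were grown or prepared together, and with 2 numbers no closer check was possible. With the replicate block 5098 of the 5534 calls were shared. Unknown depth limits low genes most, because a value near 1 FPKM may rest on few fragments.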

Other observations

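Some genes differed more within a group than between groups, and their values are given without explanation. ENO3 was at 77.4 FPKM in B5 replicate 1 and 7.77 in replicate 2, and at 8.79 in shM3 replicate 1 and 70.6 in replicate 2. VIM-AS1 was at 65.3 and 549.9 in B5 and at 34.6 and 341.5 in shM3, with the higher value in replicate 2 of both groups. MYC was at 3.70 and 24.6 in the 2 B5 libraries, and CLDN4 at 35.2 and 1.04.

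Among gene types, 1753 lncRNAs were called higher in 13.6% and lower in 11.5%, and 12044 protein-coding genes in 19.0% and 21.8%, and the difference was not tested.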
